A study of Mus musculus with 8 samples.

Results

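Imprinted growth genes are genes that are read from only 1 of the parental copies and that act on embryonic growth. The 8 examined here are *Peg10*, *Ndn*, *Cdkn1c*, *Dlk1*, *Peg3*, *Grb10*, *Plagl1* and *Mest*. They were picked by symbol, and all 8 were found among the 19465 genes of the count tables. Their UMIs (distinct captured molecules) were read in 8 Visium sections of embryonic mouse diaphragm, by stage, genotype and position of the spot. The controls, with at least 1 working allele each of CaV1.1 and β-catenin, comprised 3 sections at E14.5 and 2 at E18.5. The CaV1.1 -/- embryos, here KO, lack the calcium channel and voltage sensor of skeletal muscle from the start of life, in muscle and in every other tissue, with 1 section at E14.5 and 1 at E18.5. The bCat cKO, with 1 section at E18.5, has floxed β-catenin alleles and a Cre that is driven by the human skeletal actin (HSA) promoter, so that the deletion is directed to muscle. All comparisons of stage and of mutants draw on the same 5 control sections. Every section came from a flat, 5 µm thick paraffin-embedded diaphragm of its own embryo, read on spots 55 µm wide at a pitch of 100 µm. A spot therefore holds several cells, and p-values measure the spread between sections. Each mutant group is 1 section, which was assumed to vary as the controls do.

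Genomic imprinting marks the maternal and the paternal copy of a gene differently in the germ line, mostly by DNA methylation, so that the embryo transcribes the gene from one of them. Of the genes here, *Peg10*, *Ndn*, *Dlk1*, *Peg3*, *Plagl1* and *Mest* are expressed from the paternal copy, whereas *Cdkn1c* and, in most tissues, *Grb10* are expressed from the maternal copy. Several sit in clusters with other imprinted genes, *Ndn* beside *Magel2*, *Peg10* beside *Sgce* and *Dlk1* beside *Rtl1*. *Cdkn1c* encodes p57, an inhibitor of cyclin-dependent kinases that takes part in cell cycle exit of myoblasts, and *Grb10* an adaptor that dampens insulin and IGF receptor signaling. *Dlk1* encodes a membrane protein related to Notch ligands that is abundant in embryonic muscle, and *Ndn* encodes necdin, a MAGE family protein of neurons and muscle precursors. *Plagl1* and *Peg3* encode zinc-finger proteins, *Peg10* a protein derived from a retrotransposon, and *Mest* a member of the hydrolase family. The counts do not tell the parental alleles apart, so they say nothing of imprinting itself.

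The members lie on 5 chromosomes of the RefSeq annotation of GRCm38.p6, the patch release of the mm10 reference that the files name. *Peg10* (ENSMUSG00000092035, chr6:4747306-4760517) and *Mest* (ENSMUSG00000051855, chr6:30733506-30748466) lie on chromosome 6. *Peg3* (ENSMUSG00000002265, chr7:6703892-6730462), *Ndn* (ENSMUSG00000033585, chr7:62348277-62349928) and *Cdkn1c* (ENSMUSG00000037664, chr7:143458339-143461059) lie on chromosome 7. *Plagl1* (ENSMUSG00000019817, chr10:13090832-13131694), *Grb10* (ENSMUSG00000020176, chr11:11930499-12037428) and *Dlk1* (ENSMUSG00000040856, chr12:109452485-109463336) each lie on a chromosome of their own. RefSeq promoter windows from 250 bases before to 50 bases after a start were matched for 6 of the 8 members, in 9 entries, and not for *Peg10* and *Cdkn1c*. Of these windows, 4 are shown. Those of *Ndn*, *Dlk1* and *Plagl1* are shown because these genes gave the KO, the rising and the most strongly falling result described below, with every CG dinucleotide, the site of DNA methylation, in capitals. The start of the *Dlk1* entry lies inside the annotated gene. That of *Peg3* is shown because it holds the palindrome GGGGCCCC, which was searched as a motif bound by PLAGL1 and is in capitals.
*Ndn*, chr7:62348027-62348326, plus strand: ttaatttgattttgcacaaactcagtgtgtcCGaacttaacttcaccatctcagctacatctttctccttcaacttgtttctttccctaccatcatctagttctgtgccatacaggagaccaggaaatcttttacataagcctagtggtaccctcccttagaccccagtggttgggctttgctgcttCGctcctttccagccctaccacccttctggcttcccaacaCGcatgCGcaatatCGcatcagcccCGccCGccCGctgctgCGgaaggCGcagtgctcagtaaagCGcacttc
*Dlk1*, chr12:109452573-109452872, plus strand: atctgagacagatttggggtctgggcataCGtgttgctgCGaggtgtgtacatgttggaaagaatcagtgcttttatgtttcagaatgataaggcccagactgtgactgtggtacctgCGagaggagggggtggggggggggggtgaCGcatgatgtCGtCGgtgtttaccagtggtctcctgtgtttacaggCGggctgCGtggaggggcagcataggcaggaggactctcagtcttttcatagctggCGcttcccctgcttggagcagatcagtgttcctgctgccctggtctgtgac
*Plagl1*, chr10:13090582-13090881, plus strand: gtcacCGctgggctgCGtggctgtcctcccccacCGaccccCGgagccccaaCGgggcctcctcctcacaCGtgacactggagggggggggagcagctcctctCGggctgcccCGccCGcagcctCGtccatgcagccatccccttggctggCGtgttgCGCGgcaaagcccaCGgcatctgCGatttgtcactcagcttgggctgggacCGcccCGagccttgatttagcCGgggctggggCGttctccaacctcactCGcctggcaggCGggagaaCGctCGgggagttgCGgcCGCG
*Peg3*, chr7:6730370-6730669, minus strand: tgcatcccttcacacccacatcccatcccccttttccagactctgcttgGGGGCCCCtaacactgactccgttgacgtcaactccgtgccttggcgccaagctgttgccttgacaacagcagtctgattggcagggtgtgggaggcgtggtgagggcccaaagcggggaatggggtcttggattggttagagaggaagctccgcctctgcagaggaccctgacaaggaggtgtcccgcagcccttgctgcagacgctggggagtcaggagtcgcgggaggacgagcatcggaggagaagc

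The CG count was 11 in the *Ndn*, 9 in the *Dlk1* and 26 in the *Plagl1* window, against a median of 7 and quartiles of 3 and 20 over 32851 promoter windows of the same length. Across the 9 entries of the members it ran from 8 (*Mest*, entry 1) to 45 (*Grb10*, entry 1). The letters GGGGCCCC, the same on both strands, were found once, in *Peg3*, and in 354 of all 32851 windows (1.078%). The E-box CANNTG, also the same on both strands, was present in the *Plagl1* window, in all 3 *Mest* entries and in 1 of the 2 *Grb10* entries, and in 72.314% of all windows. TATAAA, searched on both strands, was present in none of the 9 entries and in 13.616% of all windows. Such matches are a description of these letters and windows only.

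The sections held from 14179161 UMIs (E14.5 control 3) to 82859104 (E18.5 control 1), on 683 to 3460 spots with at least 1000 UMIs. Muscle spots, which lie above a threshold of 9 sarcomere genes, numbered 491 to 581 at E14.5 and 813 to 3092 at E18.5. Replicates of a group differed beyond sampling noise in every pair. *Cacna1s*, which encodes CaV1.1, stood at 84.4 and 87.3 TMM-scaled CPM in muscle of E18.5 controls and at 29.7 in the KO (log2 fold change −1.53 ± 0.15 (SE), edgeR adjusted p = 0.0013), and at E14.5, where it was low, at 16.5, 14.96 and 18.4 against 13.4 (not called). *Ctnnb1*, the β-catenin gene, stood at 105 and 97.4 in E18.5 controls and at 96.2 in the cKO (−0.07 ± 0.12, not called), so that these counts do not show the deletion. Whether the probes lie in the deleted exons is not given in the sources used here, and the cKO is called by its label.

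All 8 genes were detected in muscle of every section. Together they took 1.75%, 1.78% and 1.86% of the muscle UMIs in E14.5 controls and 0.955% and 0.943% in E18.5 controls. The share was 1.51% in the KO at E14.5, 1.29% in the KO at E18.5 and 1.203% in the cKO. It was lower in both E18.5 controls than in every other section. The 9 sarcomere genes summed to 21642 to 27362 raw CPM in muscle of E14.5 controls and to 128417 and 131917 in E18.5 controls, so that all other genes together took a smaller share. TMM scaling sets such a shift aside by taking most genes as equal, and all tests below use it unless stated. With library totals in its place, the median of all genes moved by −0.73 on the log2 scale between the stages, by 0.54 in the KO at E18.5 and by 0.21 in the cKO, against 0.01 in the KO at E14.5. The share of higher among the called genes then went from 50.7% to 20.01% between the stages, from 41.1% to 90.6% in the KO at E18.5 and from 36.1% to 79.9% in the cKO. The part of the 9 sarcomere genes in these shifts and in the lower share of the members was not tested. Fewer cells of a type and less RNA per cell cannot be told apart in sums over spots.

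From E14.5 to E18.5, the members did not move as 1 group. In TMM-scaled CPM of control muscle, *Cdkn1c*, *Plagl1*, *Mest* and *Peg3* fell, whereas *Dlk1* rose, a rise that was not seen with library totals. That is 5 of 8 members called at an edgeR adjusted p below 0.05, where 65.6% of all 14832 genes tested were called, a share near that of the members. The median log2 fold change was −0.41 over the members and −0.01 over all genes tested.

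*Cdkn1c* stood at 4202, 4063 and 4567 TMM-scaled CPM in the 3 E14.5 controls and at 2398 and 2541 in the 2 E18.5 controls (log2 fold change −0.79 ± 0.12 (SE), edgeR adjusted p = 6.5e-04). *Plagl1* went from 1671, 1711 and 1535 to 845 and 883 (−0.92 ± 0.11, edgeR adjusted p = 2.0e-04), and *Mest* from 1613, 1676 and 1829.7 to 1069.5 and 909.9 (−0.79 ± 0.13, edgeR adjusted p = 9.0e-04). Each of these 3 genes was called under all 14 alternatives. The stages did not overlap in them, nor in any other member but *Grb10*, and the share of all genes without overlap was not counted. *Peg3* went from 1599, 1496 and 1450.3 to 1265 and 1099.8, again without overlap (−0.36 ± 0.12, edgeR adjusted p = 0.028). The *Peg3* call rests on single sections, since it was lost without E14.5 control 2 or 3 (edgeR adjusted p = 0.067 and 0.059) or without E18.5 control 2 (−0.26, edgeR adjusted p = 0.21), and with E14.5 control 3 as the only E14.5 control (edgeR adjusted p = 0.13). It held in 9 of 14 alternatives, with a highest edgeR adjusted p of 0.21.

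*Dlk1* was the member that rose, from 3435, 3218 and 3228 TMM-scaled CPM at E14.5 to 4926 and 5269 at E18.5 (0.63 ± 0.11, edgeR adjusted p = 0.0016), but with library totals its log2 fold change turned to −0.09 and was not called (edgeR adjusted p = 0.33). Against the median gene, which then stood at −0.73, *Dlk1* was still higher. *Rtl1*, its neighbor in the cluster, rose by 2.53 ± 0.19 on the log2 scale with TMM scaling (edgeR adjusted p = 1.9e-05). *Grb10* overlapped between the stages, with 1881, 1732 and 1667 TMM-scaled CPM at E14.5 and 2069 and 1604 at E18.5 (0.06 ± 0.14, not called), and was called lower with library totals (−0.66, edgeR adjusted p = 0.0011). *Ndn* stood at 459, 385 and 353 TMM-scaled CPM at E14.5 and at 276 and 352 at E18.5 (−0.34 ± 0.15, edgeR adjusted p = 0.079). *Peg10* stood at 446, 323 and 341 and at 313 and 227 (−0.45 ± 0.18, edgeR adjusted p = 0.060). For both, the higher E18.5 control lay close below the lowest E14.5 control, and neither passed the test. *Peg10* passed it in 7 of 14 alternatives, all in the same direction.

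**Figure D1:**
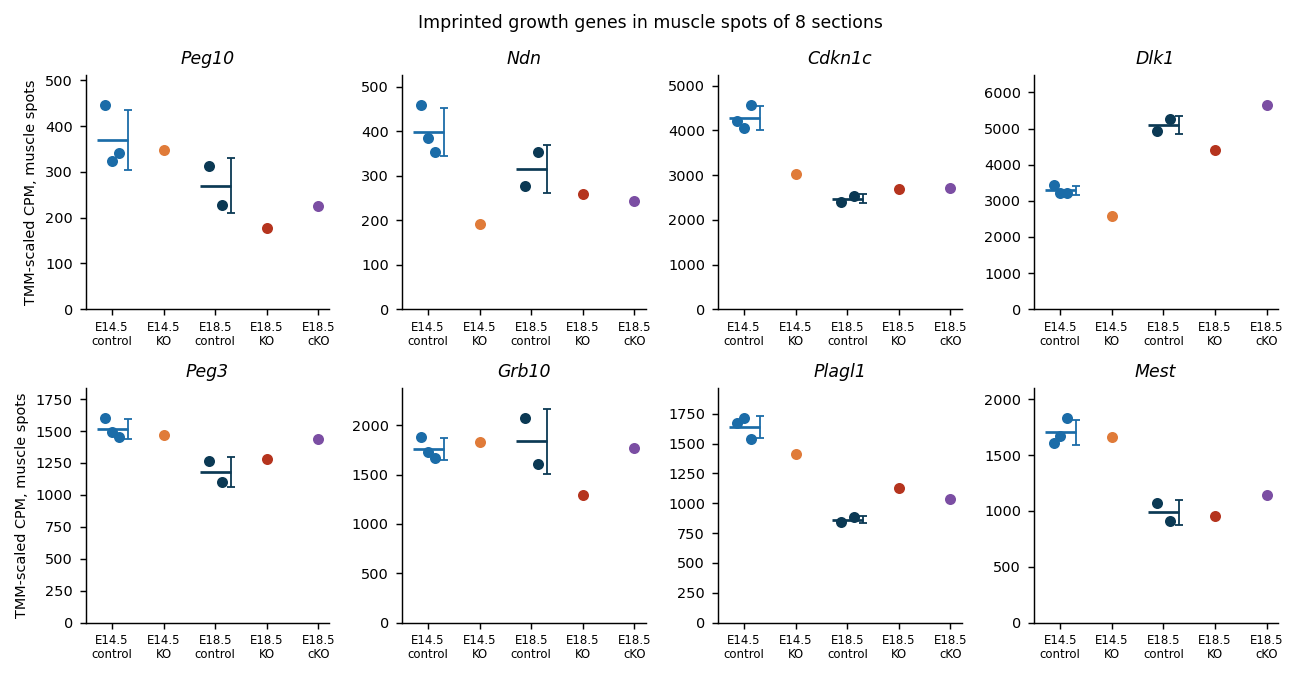
Level of each gene in muscle spots, in TMM-scaled CPM on a linear axis from 0, with 1 point per section. Horizontal lines and bars give the mean and SD of the 3 E14.5 and 2 E18.5 controls. *Cdkn1c*, *Plagl1*, *Mest* and *Peg3* sit lower and *Dlk1* sits higher in E18.5 than in E14.5 controls (with library totals its log2 fold change was −0.09), and *Ndn* in the KO at E14.5 lies at 191, below every control.

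In spots outside muscle, 1 of the 8 members was called between the stages (30.6% of 14799 genes). *Peg3* stood there at 1574, 1973 and 1746 TMM-scaled CPM at E14.5 and at 1262 and 1128 at E18.5 (−0.56 ± 0.16, edgeR adjusted p = 0.045), and leaving out any 1 of the 5 controls ended the call. The log2 fold changes of *Cdkn1c* (−0.48 ± 0.16), *Mest* (−0.48 ± 0.17) and *Dlk1* (0.46 ± 0.17) had the sign they had in muscle and were not called. Tested directly, the stage difference in muscle was not called different from that in other spots for any member (0 of 8 by edgeR, where 18.6% of 15461 genes were called). An unadjusted p below 0.05 by edgeR was found for 3 of 8 members, *Peg10*, *Plagl1* and *Ndn*, and for 5102 of the 15461 genes, a share near that of the members. DESeq2 called *Peg10* and *Plagl1*.

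The lists of related genes moved in their own ways with TMM scaling. Of 18 cell cycle genes tested, 17 fell in muscle between the stages and 1, *Ccnd1*, rose (median log2 fold change −1.69), the largest falls being *Ccne1* (−2.77 ± 0.22), *Bub1* (−2.32 ± 0.17) and *Mcm5* (−2.11 ± 0.11). Of the 6 other CDK inhibitors, 3 rose and none was called lower, with *Cdkn2d*, *Cdkn2b* and *Cdkn1b* at 1.63 ± 0.11, 1.51 ± 0.52 and 1.12 ± 0.11. *Cdkn1c* thus went down, as the cell cycle genes did, while these 3 inhibitors went up. With library totals, 17 of the 18 cell cycle genes were still lower and none was called higher, and 2 of the 6 inhibitors were higher and 2 lower. In the insulin and IGF list, 11 of 20 genes rose and 4 fell (median 0.48), with the binding protein genes *Igfbp6* (4.20 ± 0.36) and *Igfbp5* (−1.22 ± 0.13) on either end. *Igf2*, the growth factor, rose from 3306, 3318 and 3147 to 7799 and 7816 TMM-scaled CPM (1.26 ± 0.11), whereas *Igf2r*, the receptor that clears it, stood at −0.05 ± 0.14 and was not called. In the Notch pathway, 3 of 14 genes rose and 3 fell (median −0.17), with the ligands *Dll4* at 1.57 ± 0.16 and *Dll1* at −0.75 ± 0.12 on either end. With library totals, 5 insulin and IGF genes were higher and 12 lower, *Igf2* stayed higher (0.54) and *Igf2r* became lower (−0.77), and 1 Notch gene was higher and 11 were lower. Markers of other tissues differed between the stages too. With TMM scaling 5 of 5 endothelial markers rose (3 of 5 with library totals), and their summed level in muscle was 236 to 335 raw CPM in E14.5 and 449.7 and 508 in E18.5 controls. Of the macrophage markers 4 of 5 were called higher with TMM scaling and none with library totals (median −0.14), and their summed raw CPM of 150.1 to 164 at E14.5 lay between the 129.9 and 183 of the E18.5 controls. With TMM scaling 4 of 6 tendon, 4 of 4 cartilage and 3 of 5 fibroblast markers were also higher, 4 of 6 mesothelium markers were higher and 1 lower, and 2 of 4 smooth muscle and 2 of 5 nerve markers were lower with 1 higher in each. For all these lists, their part in the members' changes was not tested.

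Other imprinted genes also moved both ways. Of 16 further paternally expressed genes tested, 5 rose and 7 fell between the stages (median −0.33), led by *Rtl1* among the risers and *Nnat* among those that fell. Of 19 further maternally expressed genes, 8 rose and 6 fell (median 0.11), led by *Kcnq1* (3.27 ± 0.25) and *Phlda2* (−3.73 ± 0.70), and *Phlda2* was below 1 TMM-scaled CPM in every section. *Magel2*, which lies beside *Ndn*, fell from 84.9, 77.0 and 80.03 to 22.3 and 23.9 TMM-scaled CPM (−1.80 ± 0.09, edgeR adjusted p = 2.6e-06). *Sgce*, beside *Peg10*, stood at −0.09 ± 0.08 and was not called with TMM scaling. With library totals, where the median gene fell as well, 2 of the paternally expressed genes were higher and 10 lower, and 3 of the maternally expressed ones were higher and 11 lower. *Snrpn* was below 1 TMM-scaled CPM in every section. *H19* and *Meg3* were not analysed here.

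In the KO at E14.5, *Ndn* was the 1 member of 8 that was called in muscle, where 2.08% of 14832 genes were. It stood at 191 TMM-scaled CPM against 459, 385 and 353 in the 3 controls. The KO section lay below every control (log2 fold change −1.06 ± 0.20 (SE), edgeR adjusted p = 0.048). The call stands close to the threshold and was lost without E14.5 control 2 or 3 (−1.09 and −1.14, edgeR adjusted p = 0.091 and 0.11), with interior muscle spots only (−1.099, edgeR adjusted p = 0.069), and against E14.5 control 3 alone (−0.88, edgeR adjusted p = 0.17). It held in 9 of 14 alternatives, over which the log2 fold change ran from −1.14 to −0.88.

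*Magel2* was also lower in the KO at E14.5, at 34.9 TMM-scaled CPM against 84.9, 77.0 and 80.03 (−1.21 ± 0.12, edgeR adjusted p = 0.0066), and it was the 1 gene called of the 16 further paternally expressed genes. *Calcr* was the 1 called of the 19 maternally expressed ones (−1.38 ± 0.27, not called with library totals), and no gene of the CDK inhibitor and cell cycle lists was called by edgeR. Outside muscle, *Ndn* stood at 175 against 354, 307 and 266 TMM-scaled CPM, again below every control, with a log2 fold change of −0.82 ± 0.26 that was not called. No gene of 14799 was called there (0%, with 1208 at an unadjusted p below 0.05 by edgeR and 177 called by DESeq2). The muscle minus other contrast was not called different between KO and controls for *Ndn* (−0.23 ± 0.13) or for any of 15461 genes (0%, with 1190 at an unadjusted p below 0.05 by edgeR and 16 called by DESeq2). *Cdkn1c* was lower in the KO section than in every control, at 3019 against 4202, 4063 and 4567 TMM-scaled CPM (−0.50 ± 0.15, edgeR adjusted p = 0.16), and likewise *Dlk1*, at 2580.1 against 3435, 3218 and 3228 (−0.35 ± 0.15, edgeR adjusted p = 0.29). Both were called by DESeq2 and not by edgeR. Macrophage markers were higher in the same KO muscle, with 2 of 5 called (median 0.94) and a summed level of 289 raw CPM against 150.1 to 164 in the controls. Lower in the same section were 2 of 6 tendon markers, *Thbs4* and *Tnmd* (median of the list −0.51, summed at 347 raw CPM against 455 to 586), 1 of 5 endothelial markers (−0.73, 169 against 236 to 335) and 1 of 4 smooth muscle markers (−0.44, 548 against 545 to 697). None of the 9 sarcomere genes was called by edgeR with TMM scaling (median −0.51) and 2 were called lower with library totals, and their sum was 16235 raw CPM against 21642 to 27362. The part of these tissues in the members' differences was not tested.

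In the KO at E18.5, none of the 8 members was called in muscle by edgeR with TMM scaling, where 25.7% of 14832 genes were (3 members were called by DESeq2). Unadjusted p-values of edgeR lay below 0.05 for 3 of 8 members and for 5902 of the 14832 genes, a share near that of the members. *Grb10* stood at 1294 TMM-scaled CPM against 2069 and 1604 in the 2 controls (−0.50 ± 0.19, edgeR adjusted p = 0.093), *Peg10* at 177 against 313 and 227 (−0.61 ± 0.25, edgeR adjusted p = 0.11) and *Plagl1* at 1128 against 845 and 883 (0.39 ± 0.14, edgeR adjusted p = 0.088). The KO lay below both controls for *Grb10* and *Peg10* and above both for *Plagl1*, and these are the 3 that DESeq2 called. With library totals *Grb10* stood at 0.03 and *Peg10* at −0.07. On that scale, 5 of 8 members were called higher, *Cdkn1c*, *Dlk1*, *Peg3*, *Plagl1* and *Mest*, as were 7245 of 14832 genes, and the median gene stood at 0.54. For *Dlk1* and *Mest* (0.33 and 0.49) the change of scale turned the sign of the TMM-scaled log2 fold change (−0.21 ± 0.15 and −0.05 ± 0.17).

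Neighbors of the members changed in this KO with TMM scaling, and of the 3 named here *Rtl1* was still called with library totals (−1.404), while *Magel2* (−0.25) and *Igf2* (−0.14) kept the direction only. *Magel2* fell to 13.3 TMM-scaled CPM from 22.3 and 23.9 (−0.79 ± 0.13, edgeR adjusted p = 0.0053), *Rtl1* by 1.94 ± 0.28 on the log2 scale (edgeR adjusted p = 0.0040) and *Igf2* to 4869.8 from 7799 and 7816 (−0.68 ± 0.16, edgeR adjusted p = 0.018). Of the cell cycle list 5 of 18 genes were higher and none was called lower (median 0.35), led by *Mcm2* (0.81 ± 0.13), and of the 6 other CDK inhibitors *Cdkn2b* (3.36 ± 0.57) and *Cdkn2c* (0.65 ± 0.16) were higher and *Cdkn2d* (−1.17 ± 0.16) lower. Of the Notch list, *Dll1* and *Dlk2*, a relative of *Dlk1*, were higher and *Dll4* lower (0.87 ± 0.15, 0.82 ± 0.19 and −0.91 ± 0.22), and of the insulin and IGF list 4 of 20 were higher and 2 lower, with *Igfbp2* at 1.07 ± 0.19 and *Insr*, the insulin receptor gene, at −0.81 ± 0.12. Of the further imprinted genes, 1 of 16 paternally expressed genes was higher (*Rasgrf1*, 5.08 ± 0.69) and 4 were lower, and 4 of 19 maternally expressed genes were lower, led by *Kcnq1* (−1.86 ± 0.35). With library totals the counts of higher and lower genes were 15 and 0 in the cell cycle list, 4 and 1 in the CDK inhibitors, 6 and 0 in the Notch list, 11 and 0 in the insulin and IGF list, 6 and 2 in the paternally and 6 and 1 in the maternally expressed genes. Marker levels of other tissues differed as well. The 9 sarcomere genes were all lower, at 71384 raw CPM in muscle against 128417 and 131917. Nerve markers were higher (4 of 5 called, 177 raw CPM in muscle against 58.2 and 63.6), as were macrophage markers (3 of 5 called, 468 against 129.9 and 183). With library totals 6 of the 9 sarcomere genes were called lower and 5 nerve and 4 macrophage markers higher. Lower with TMM scaling were also 4 of 5 endothelial, 4 of 6 tendon, 3 of 4 smooth muscle and 2 of 4 cartilage markers (0, 2, 2 and 2 with library totals), and their part in the members' values was not tested.

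In the cKO at E18.5, none of the 8 members was called in muscle by edgeR with TMM scaling either, where 8.8% of 14832 genes were. DESeq2 also called none, and 0 members had an unadjusted p below 0.05 by edgeR, against 3805 of all genes. This comparison shares its 2 controls with the KO at E18.5. *Ndn* had the largest difference, at 243 TMM-scaled CPM against 276 and 352 (−0.37 ± 0.21, edgeR adjusted p = 0.31), below both controls. *Peg3* stood at 1441 against 1265 and 1099.8 (0.29 ± 0.15, edgeR adjusted p = 0.30) and *Plagl1* at 1037 against 845 and 883 (0.26 ± 0.14, edgeR adjusted p = 0.30), both above the 2 controls. With library totals, where the median gene stood at 0.21, *Dlk1*, *Peg3* and *Plagl1* were called higher, as were 2258 of 14832 genes. None of the 16 further paternally expressed genes was called in the cKO by edgeR, and of the 19 maternally expressed ones *Tssc4* was higher (0.48 ± 0.12) and *Calcr*, the calcitonin receptor gene, lower (−1.29 ± 0.24). Of the Notch list *Dlk2* was higher (1.16 ± 0.18) and *Dll4*, *Jag1* and *Notch3* were lower (−0.88 ± 0.21, −0.57 ± 0.14 and −0.49 ± 0.11). In the cell cycle list, *Mcm5* was higher (0.58 ± 0.14) and *Ccnd1* lower (−0.89 ± 0.16), while with library totals 14 of the 18 genes were called higher and 1 lower. Of the markers of other tissues, 1 of 4 smooth muscle (*Cnn1*) and 1 of 5 macrophage markers (*C1qb*) were called higher with TMM scaling, and 3 and 4 with library totals, with summed levels of 568 raw CPM against 308 and 312 and of 305 against 129.9 and 183. With library totals 1 of 6 mesothelium markers was also higher, and 1 of 5 endothelial and 1 of 4 cartilage markers were lower on both scales. The part of these tissues in the members' values was not tested.

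Outside muscle, none of the members was called by edgeR in the KO at E18.5 (0.108% of 14799 genes) or in the cKO (1.22%). The muscle minus other contrast was not called different from that of the controls for any member in the KO at E18.5 (0% of 15461 genes, with 2907 at an unadjusted p below 0.05 by edgeR) or in the cKO (0.77%). An unadjusted p below 0.05 was found for no member in the first pair of comparisons, for *Ndn* in the muscle minus other contrast of the KO and for *Peg3* and *Mest* in that of the cKO. Over all genes the first pair held 1931 and 2135 of 14799 such genes by edgeR, and the contrast of the cKO 2202 of 15461. DESeq2 called no member in these 4 comparisons, nor outside muscle in the KO at E14.5, where 2 members had an unadjusted p below 0.05.

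**Figure D2:**
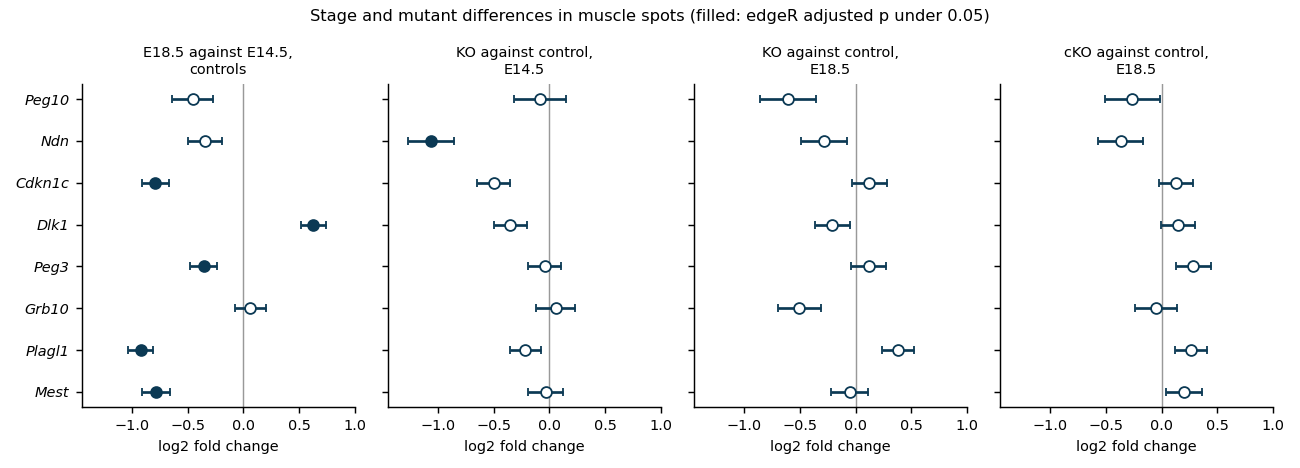
Log2 fold change of each gene in muscle with its SE, for the stages and the 3 mutant sections against the controls of their stage. Filled points are called (edgeR adjusted p below 0.05), which are 5 genes between the stages and *Ndn* in the KO at E14.5.

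Contrasts between muscle regions set by marker scores put *Ndn* and *Cdkn1c* apart from the other members. To set the center, muscle spots were ranked by a summed score of 8 endplate genes, such as *Chrna1*, which encodes a subunit of the acetylcholine receptor, and the top 15% were taken. Periphery spots are the top 15% for 4 genes of the myotendinous junction, such as *Col22a1*, and the rest are intermediate. These regions are ranks of expression and not equal places. Median distances of center, intermediate and periphery spots from spots outside muscle were 600, 436 and 173 µm in E18.5 control 1. They were 700, 557 and 200 µm in E18.5 control 2. In E14.5 controls 1 to 3 center spots lay at 200, 265 and 346 µm and intermediate spots at 173, 173 and 436 µm. No member is a score gene, and the score genes stay out of the counts here. In E14.5 controls, *Ndn*, *Cdkn1c*, *Dlk1* and *Grb10* exceeded their periphery level in the center, 4 of 8 members against 20.3% of 14149 genes called. In E18.5 controls, *Ndn* and *Cdkn1c* were higher in the center and *Mest* lower, 3 of 8 against 20.8%.

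*Ndn* stood at 551, 491 and 440.0 TMM-scaled CPM in center spots of the 3 controls at E14.5, at 454, 379 and 352 in intermediate spots and at 361, 321 and 288 in the periphery. In E18.5 controls 1 and 2 it stood at 465 and 549 in the center, 253 and 332 in intermediate spots and 205 and 269 in the periphery. The 3 regions thus fell in this order in 5 of 5 control sections. Center minus periphery was 0.61 ± 0.05 on the log2 scale at E14.5 (edgeR adjusted p = 8.5e-12) and 1.103 ± 0.05 at E18.5 (edgeR adjusted p = 1.6e-17). Of 6137 genes with a mean of at least 5 on the log2 CPM scale that are no score genes, 197 had a larger value than *Ndn* at E14.5 and 16 at E18.5.

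The contrast of *Ndn* was larger at E18.5 than at E14.5, by 0.49 ± 0.07 (edgeR adjusted p = 7.5e-06), 1 of 2 members for which the stages differed where 8.12% of genes did. The center values of the stages overlap, while those of intermediate spots and periphery lie lower at E18.5 in both sections than in all 3 E14.5 sections. With center and periphery taken by distance from the spots outside muscle in place of the scores, *Ndn* was higher in the center at both stages (0.28 and 0.49, called by edgeR), but the stage difference was 0.21 and not called. The 8 center score genes, which define the center, were themselves more unequal at E18.5, with a summed log2 center minus periphery of 2.03 and 1.97 against 0.888 to 1.33 at E14.5, and the part of this in the *Ndn* difference was not tested.

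*Cdkn1c* showed the opposite change with stage. Its center, intermediate and periphery levels were 5335, 5232 and 5542, then 4107, 4007 and 4545, then 3177, 3319.8 and 3939 TMM-scaled CPM in E14.5 controls. In E18.5 controls they were 2475 and 2811, then 2493 and 2640.3, then 2119 and 2076. The order was graded in every E14.5 section, whereas center and intermediate spots were close at E18.5 and the periphery stayed lowest. Center minus periphery was 0.63 ± 0.05 at E14.5 (edgeR adjusted p = 1.4e-11) and 0.33 ± 0.06 at E18.5 (edgeR adjusted p = 8.1e-05). The difference between the stages was −0.30 ± 0.08 (edgeR adjusted p = 0.010), and it was lost without E14.5 control 1 (−0.24, edgeR adjusted p = 0.095) or E18.5 control 1 (−0.20, edgeR adjusted p = 0.37) and with regions by distance (−0.11, edgeR adjusted p = 0.65), and held in 7 of 12 alternatives. Without E18.5 control 2 the contrast at E18.5 was 0.22 and not called (edgeR adjusted p = 0.13).

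The other members varied less with position. At E14.5, *Dlk1* was higher in the center by 0.25 ± 0.05 (edgeR adjusted p = 7.7e-05) and *Grb10* by 0.14 ± 0.04 (edgeR adjusted p = 0.015), both in 3 of 3 sections. The *Grb10* call was lost without E14.5 control 1 or 2 (edgeR adjusted p = 0.076 and 0.065) and with library totals (edgeR adjusted p = 0.17). At E18.5, *Mest* was lower in the center, with a log2 difference of −0.14 ± 0.05, in 2 of 2 sections (edgeR adjusted p = 0.048), a call that did not hold without either E18.5 control (edgeR adjusted p = 0.20 and 0.51) or without E14.5 control 1 (0.053). Against intermediate spots, the center was higher in *Ndn* and *Cdkn1c* and lower in *Mest* at E14.5 (3 of 8 members against 14.4% of genes), where the *Mest* call (−0.13, edgeR adjusted p = 0.030) held in 4 of 12 alternatives and without 1 of the 5 controls only, E14.5 control 3, with a highest edgeR adjusted p of 0.84. The center was higher in *Ndn* alone at E18.5 (0.80 ± 0.05, 1 of 8 against 11.9%). With regions by distance, the center minus intermediate value of *Ndn* turned to −0.05 at E14.5 and was not called at either stage. *Magel2* exceeded its periphery level in the center at both stages, by 0.85 ± 0.08 and 0.63 ± 0.12 (edgeR adjusted p = 5.3e-10 and 9.8e-05). Nerve markers were higher there as well (4 of 5 at E14.5 and 5 of 5 at E18.5), and tendon markers lower (6 of 6 at both). Fibroblast and macrophage markers were lower at E14.5 (4 of 5 each), and endothelial (3 of 5) and mesothelium (2 of 6) markers higher at E18.5, and their part in the members' contrasts was not tested.

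**Figure D3:**
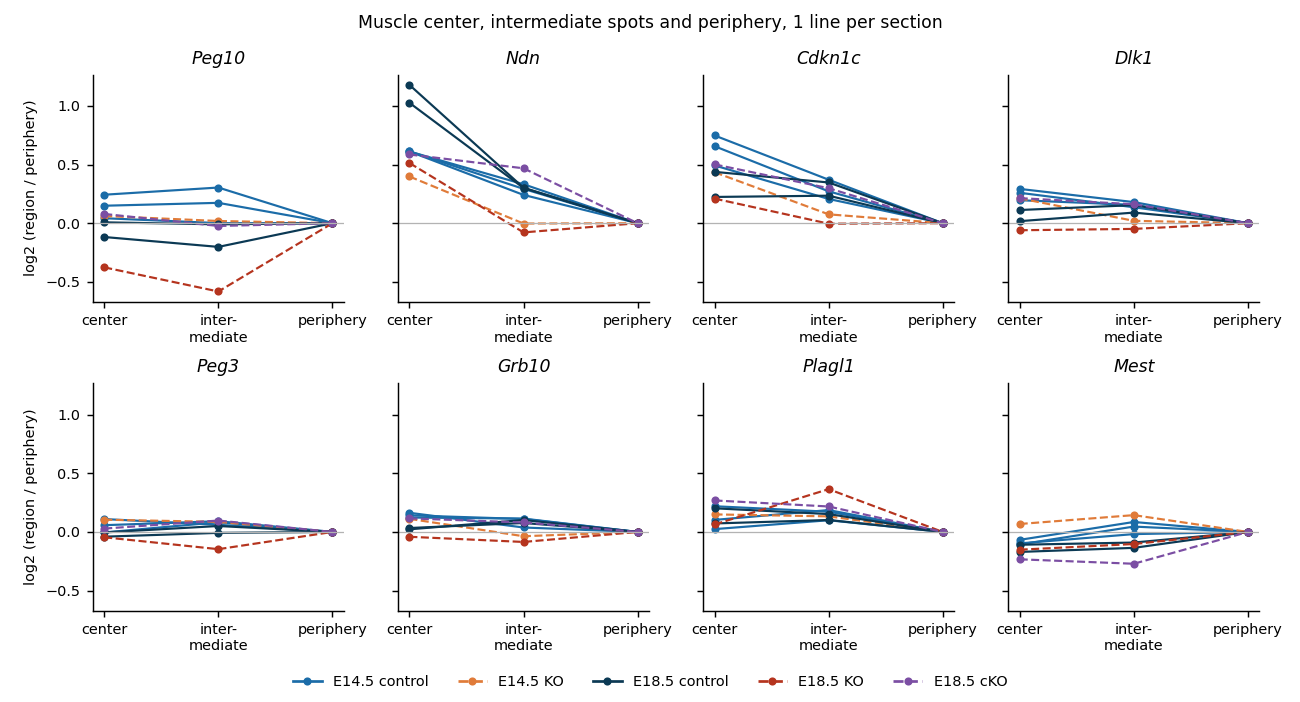
Each line is 1 section and gives the log2 ratio of the level (TMM-scaled CPM) in center and intermediate spots to that in the periphery of the same section. Lines of *Ndn* slope down from center to periphery in all 5 controls, steepest in the E18.5 controls, and those of *Peg3* stay between −0.04 and 0.11 in the controls at the center.

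In both E18.5 mutants the *Ndn* contrast was smaller than in the controls. In the KO, *Ndn* stood at 367 TMM-scaled CPM in the center, 244 in intermediate spots and 257 in the periphery. The cKO gave 279, 257 and 186 in the same order. The center of each mutant lay below that of both controls (465 and 549). Center minus periphery, 1.18 and 1.03 in the controls, was 0.51 in the KO and 0.59 in the cKO. The difference from the controls was −0.59 ± 0.11 in the KO (edgeR adjusted p = 0.0035, 1 of 8 members against 0.594% of genes) and −0.52 ± 0.10 in the cKO (edgeR adjusted p = 0.0022, 1 of 8 against 1.24%). Both comparisons use the same 2 controls, and both calls held without any 1 control section, with a highest edgeR adjusted p of 0.046 in the KO and 0.049 in the cKO.

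The call depends on how the center is set. With regions by distance, the difference was −0.24 in the KO and −0.18 in the cKO, neither called (edgeR adjusted p = 0.55 and 0.81), and with regions of 25% it was −0.35 in the KO (edgeR adjusted p = 0.095). With regions by distance it was *Peg10* that stood apart in the KO, with a difference of 1.25, against −0.31 ± 0.13 (not called) with the scores. From within 100 µm to beyond 300 µm its raw CPM went from 138 to 262 in the KO. In the controls it went from 270 to 201 and from 182 to 160. Without the section as a block the *Ndn* values stayed at −0.58 and −0.51 and neither was called. The contrast of the 8 center score genes was also smaller in the mutants, 1.62 in the KO and 1.60 in the cKO against 2.03 and 1.97 in the controls. In the KO their summed raw CPM was higher in every region, at 4183, 1682 and 1362 from center to periphery. The controls gave 2993, 688 and 733, and 2880, 712 and 735, and the cKO 2919, 932 and 961. The part of these levels and contrasts in the *Ndn* difference was not tested. None of the 5 nerve markers was called different in this contrast in either mutant (medians −0.52 in the KO and −1.08 in the cKO). In the KO, 77.7% of center spots had another center spot as a neighbor on the grid, against 91.5% in the cKO and 95.3% and 94.0% in the controls. Center spots lay at a median of 265 µm from spots outside muscle in the KO and 361 µm in the cKO. In the controls this was 600 and 700 µm. Periphery spots lay at 173 µm in both mutants, against 173 and 200 µm. The part of these distances in the *Ndn* difference was not tested. For *Magel2*, the difference from the controls in center minus periphery was not called in the KO (0.13 ± 0.36) or the cKO (0.01 ± 0.23). At E14.5 no member was called different in this contrast in the KO (0 of 8 by edgeR and by DESeq2, against 0.141% of genes). Of the members *Ndn* alone had an unadjusted p below 0.05 by edgeR, as did 1138 of 14149 genes. It stood at 239, 181 and 181 TMM-scaled CPM from center to periphery, below every control in each region.

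**Figure D4:**
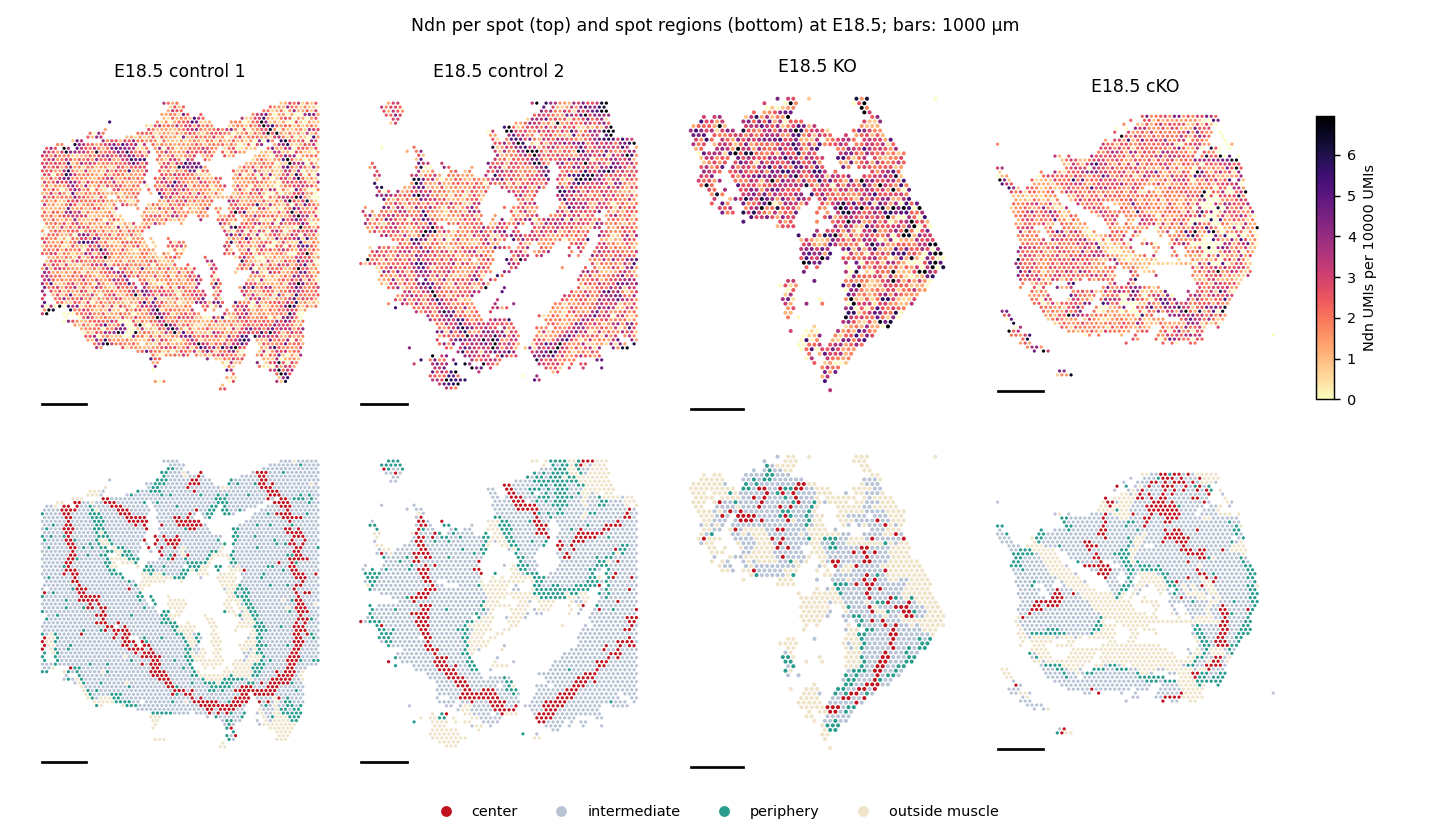
The 4 E18.5 sections, each drawn to its own scale with a bar of 1000 µm, with *Ndn* UMIs per 10000 UMIs of a spot in the upper row and the region of each spot in the lower row. In the controls dark spots, high in *Ndn*, run along the band of center spots. The log2 center minus periphery of *Ndn* was 1.18 and 1.03 in these controls, against 0.51 in the KO and 0.59 in the cKO.

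Within muscle, correlations over single spots are given as a description. *Ndn* and *Chrna1*, both log-normalized per spot, had a Pearson r of 0.174, 0.180 and 0.269 in E14.5 controls (549 to 581 spots), of 0.353 and 0.348 in E18.5 controls (3092 and 2199 spots), and of 0.213 in the KO and 0.172 in the cKO at E18.5. For *Cdkn1c* and *Chrna1* the values were 0.347, 0.509 and 0.373 at E14.5 and 0.153 and 0.159 at E18.5. *Plagl1* and *Mest* went instead with the connective tissue collagen *Col3a1* at E18.5, with r of 0.507 and 0.621 for *Plagl1* and 0.537 and 0.491 for *Mest* in the 2 controls. *Dlk1* changed sign against *Ckm*, the muscle creatine kinase, from 0.164, 0.0750 and 0.305 at E14.5 to −0.439 and −0.380 at E18.5. Spots of a section share the library, the depth per spot and the mixture of cells, and neighboring spots are not independent.

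Moran's I, the deposited score of how alike neighboring spots are, was above the section's median gene for each member in every section. *Cdkn1c* ranked highest among the members in 5 of 5 controls, from 0.305 to 0.453, within the top 1.149% of 16636 to 17937 genes scored. *Grb10* ranked lowest in 4 of the 5 controls and *Mest* in E14.5 control 3. For *Ndn* the score was 0.137 and 0.199 in E18.5 controls, against 0.0839 in the KO and 0.108 in the cKO, and 0.136, 0.148 and 0.221 in E14.5 controls against 0.174 in the KO. These scores carry no test here.

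Compared with spots outside muscle, most members were higher in muscle with TMM scaling. At E14.5 these were *Peg10*, *Ndn*, *Cdkn1c*, *Dlk1* and *Grb10* (5 of 8, where 37.3% of 15461 genes were called), and at E18.5 the same 5 and *Peg3* (6 of 8 against 53.1%). *Peg10* had the largest value at E18.5, 1.34 ± 0.12 on the log2 scale (edgeR adjusted p = 9.7e-05), with 360.5 and 267 TMM-scaled CPM in muscle against 155 and 97.1 in other spots of E18.5 controls 1 and 2, and 0.81 ± 0.10 at E14.5. *Cdkn1c* was higher in muscle by 0.97 ± 0.11 at E14.5 and by 0.72 ± 0.13 at E18.5. *Mest* (0.16 ± 0.08 and −0.10 ± 0.10) and *Plagl1* (0.26 ± 0.11 and −0.27 ± 0.13) were not called at either stage. The E14.5 calls of *Dlk1* (0.41) and *Grb10* (0.36) were lost without any 1 of the 3 E14.5 controls, with edgeR adjusted p from 0.072 to 0.15 for *Dlk1* and from 0.061 to 0.11 for *Grb10*, and with library totals (0.19 and 0.15, edgeR adjusted p = 0.19 and 0.21). The E18.5 call of *Peg3* was lost without either E18.5 control (edgeR adjusted p = 0.081 and 0.060). With library totals the median gene moved by −0.71 in muscle against other spots at E18.5, and *Ndn* (−0.21), *Dlk1* (−0.07), *Peg3* (−0.29, called) and *Grb10* (−0.05) turned negative there, while *Peg10* stood at 0.63 and *Cdkn1c* at 0.02.

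Among tissues outside muscle, told by their marker lists, levels are given as raw CPM over that in muscle of the same section, with no test. On such a scale the median gene is itself higher outside muscle. With library totals it stood at −0.20 at E14.5 and −0.71 at E18.5 in muscle against all other spots of controls. Its part in the ratios below was not tested. *Mest* exceeded muscle in tendon-rich spots of 7 of 7 sections, with a median ratio of 1.70 and a range from 1.16 to 2.15. It did so in cartilage-rich spots of 5 of 5 sections at a median of 1.71, where 70.0% of the cartilage-rich spots were also tendon-rich. *Plagl1* reached its highest median ratio in mesothelium-rich spots, 1.64 (0.649 to 2.77 over 7 sections), followed by macrophage-rich spots at 1.55. *Peg10* lay below muscle in all but 2 of these comparisons, endothelium-rich spots of 1 section (1.01) and adrenal cortex-rich spots, which were found in 1 section (1.18). *Cdkn1c* had a median ratio below 1 in all 11 tissues, from 0.54 in smooth muscle to 0.94 in tendon. Spots are small regions that can hold several of these tissues at once.

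**Figure D5:**
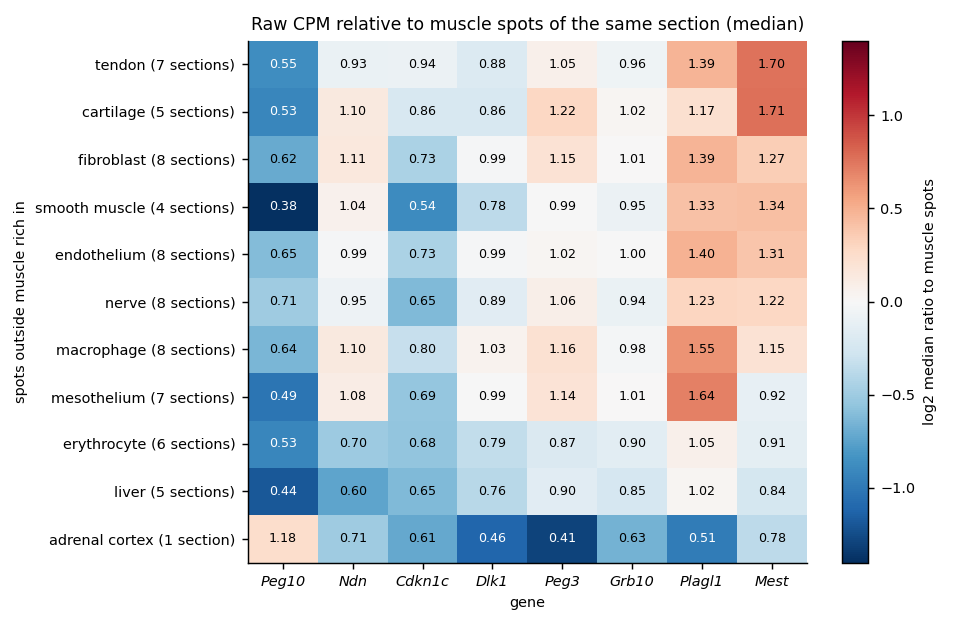
Each cell gives the median over sections of the ratio of raw CPM in tissue-rich spots to raw CPM in muscle spots of the same section, with colors on a log2 scale and the number of sections beside each tissue. Ratios of raw CPM keep the shift of the median gene between muscle and other spots. *Mest* is red (higher than muscle) most strongly for tendon and cartilage, and less so for several other tissues. *Peg10* is blue (lower) for all tissues but adrenal cortex, which rests on 1 section.

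The genes most like each member were named over 32 sums, which are center, intermediate, periphery and other spots of the 8 sections, among 8119 genes with a mean raw CPM of at least 20. For *Ndn* they were *Rgmb*, *Magel2* and the member *Cdkn1c*, with a Pearson r of log2(CPM + 1) of 0.827, 0.801 and 0.779. *Cdkn1c* was closest to *Arhgef2* (0.967), *Plagl1* to *Sf3b5* (0.963), *Mest* to *Adgra3* (0.979) and *Peg3* to *Mettl6* (0.954). *Grb10* was closest to *Igf2r*, another maternally expressed gene (0.961), *Peg10* to *Nap1l4* (0.936) and *Dlk1* to *Plce1* (0.802). Between members, r ran from −0.39 (*Dlk1* with *Mest*) to 0.92 (*Peg3* with *Mest*), and 5 of the 7 values of *Dlk1* were below 0. The sums of a section share its library, and values in raw CPM share the shift between the stages described above.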

How the data were processed

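Probe-based Visium libraries of 8 diaphragm sections were read. The authors aligned them to mm10 and counted UMIs with Space Ranger 2.0.0 (E14.5 controls 1 and 2 and the E14.5 KO) or 2.0.1 (the others, per the file headers), and deposited raw counts per gene and spot, a Moran's I score per gene, and spot positions on the array, which were the other values used as deposited. From these, spots with at least 1000 UMIs were kept, muscle spots were split from other spots by an Otsu threshold on 9 sarcomere genes, and center and periphery were the top 15% of muscle spots by each score. UMIs were summed per section and region. The Space Ranger version went partly with the stage, since every E18.5 section and E14.5 control 3 had 2.0.1, and its part was not tested. Sections were compared with edgeR 4.0.16 (filterByExpr, TMM, quasi-likelihood F test, p-values adjusted by Benjamini-Hochberg, called below 0.05) in R 4.3.3, with limma 3.58.1 and DESeq2 1.42.0 as an alternative tool. All 5 groups entered each fit, with 3 residual degrees of freedom for muscle, other spots and muscle against other spots, and 6 for regions, all from controls. A log2 value carries its SE.

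Region and muscle against other fits took the section as a replicate block, since regions come from 1 embryo. The deviations of center and periphery from their group means correlated within a section at 0.525, 0.490 and 0.264 in the E14.5 and at 0.738 in the E18.5 controls (9393 genes). Score genes were left out of the counts of those fits. Sarcomere genes were left in the muscle fit. Sections differed from 14179161 to 82859104 UMIs, and each mutant group is 1 section. Simulated counts with 200 genes changed by 1 on the log2 scale were tested first, and edgeR recovered 100% in the muscle fit (13939 genes, 3.38% of calls false), 99.5% in the region fit (13650 genes, 7.01%) and 100% in the muscle against other fit (14555 genes, 5.66%). The simulation gave all genes the same fixed spread, balanced rises and falls, and no difference between sections beyond depth. It scored the stage contrast in muscle and, at E14.5, center minus periphery and muscle minus other in controls. Mutant contrasts and a shift as large as that between the stages were not simulated.

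All 8 members are named. Of the lists (further imprinted genes, insulin and IGF, CDK inhibitors, cell cycle, Notch, tissue markers), counts are given with genes from the 3 largest called changes in each direction, and 8 cluster neighbors by name where analysed. The members and lists were chosen with earlier results of these data known. Alternatives were DESeq2, RLE factors, no filter on low counts, interior or all spots, a minimum of 5000 UMIs, regions of 10% or 25% or by distance (center the 15% of muscle spots farthest from spots outside muscle, periphery within 150 µm), blocks, and each control left out. Library totals and E14.5 control 3 alone were added after the data were seen. Python 3.11.15, numpy 2.4.6, scipy 1.17.1, pandas 2.3.3 and matplotlib 3.10.9 were used. Deposited clusters, projections and images were not used.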

Additional observations from a re-analysis of the deposited data

Results flagged for a closer look

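In the test of the center minus periphery contrast between groups, 4 differences passed at an edgeR adjusted p below 0.05. For *Ndn* the contrast was larger at E18.5 than at E14.5 by 0.49 on the log2 scale, with each E18.5 control above each E14.5 control. For *Cdkn1c* it was smaller at E18.5 by 0.30 (difference −0.30), again without overlap between the control sections of the stages. The *Ndn* contrast was lower in the KO at E18.5 by 0.59 (difference −0.59) and in the cKO by 0.52 (difference −0.52), each from 1 mutant section against the same 2 controls. With regions by distance these 4 differences were 0.21, −0.11, −0.24 and −0.18 in the same order, and none was called. The *Cdkn1c* call was also lost without E14.5 control 1 or E18.5 control 1. Control groups of 3 and 2 sections are too small to be screened for a section that stands apart.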

How the results depend on the processing

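Of 1872 values of the members under alternatives, 1732 stayed on their side of the threshold with no reversal of a called value, 67 lost a call, 63 gained one and 10 reversed. The sign changed in 99 of the 1872, and all but the 10 reversed ones were called under neither setting. The cause was not tested in any case. With library totals in place of TMM, the reversed values were −0.091 for *Dlk1* and −0.66 for *Grb10* between the stages in muscle, 0.33 for *Dlk1* and 0.49 for *Mest* in the KO at E18.5, and −0.21, −0.070, −0.29 and −0.047 for *Ndn*, *Dlk1*, *Peg3* and *Grb10* in muscle minus other spots at E18.5. With regions by distance they were 1.25 for *Peg10* in the difference of the KO at E18.5 in center minus periphery and −0.049 for *Ndn* in center minus intermediate at E14.5.

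The number of members called also moved. With library totals it was 5 in the KO at E18.5 (none with TMM), 3 in the cKO (none), 4 in other spots between the stages (1), 4 in center minus intermediate at E18.5 (1), 3 in muscle minus other at E14.5 (5) and 4 in the stage difference of muscle minus other (none). Over all genes the calls with library totals were, in this order, 7997 and 2826 of 14832, 5634 of 14799, 2208 of 14149, and 5926 and 5889 of 15461. With DESeq2 it was 3 in the KO at E14.5, 3 in the KO at E18.5, 5 in other spots between the stages and 2 in the stage difference of muscle minus other. Interior muscle spots and E14.5 control 3 alone each left 0 in the KO at E14.5, all kept spots gave 1 in the KO at E18.5, and no filter on low counts gave 1 in the stage difference of muscle minus other. With regions by distance, 0 were called in the stage difference, in the cKO difference and in center minus intermediate at either stage. Regions of 10% gave 1 in the stage difference, and regions of 25% gave 0 in the difference of the KO and 2 in center minus intermediate at E18.5.

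Controls of the 2 stages share the replicate numbers 1 and 2 but come from different embryos, and same-numbered sections did not deviate together (r of −0.0870 and −0.180 over 9409 genes), so the number does not pair them. A replicate block by that number in the muscle fit gave 0 members called in the KO at E14.5 and 1 in the KO at E18.5, with 0 genes called in all in the KO at E14.5 (308 without it) and 81 in the cKO (1305). Without the replicate block by section, 1 member was called in center minus periphery at E18.5 (3 with it), 0 in its stage, KO and cKO differences, 0 in center minus intermediate at E14.5 and 3 in muscle minus other at E14.5.

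Leaving out each control in turn gave 4 to 6 members called between the stages in muscle, 0 to 1 in the KO at E14.5, 0 to 1 in the KO at E18.5, 0 to 0 in the cKO, and 0 in every comparison of other spots. It gave 3 to 5 in center minus periphery at E14.5, 1 to 4 at E18.5, 1 to 2 in the stage difference, 0 in the difference of the KO at E14.5, and 1 in each of the KO and cKO differences at E18.5. It gave 2 to 3 in center minus intermediate at E14.5 and 1 at E18.5. In muscle minus other it gave 3 to 5 at E14.5, 5 to 6 at E18.5, 0 to 1 in the stage difference and 0 in the mutant differences.

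Counts over all genes moved by more than 1.5 times in most comparisons, from the lowest to the highest alternative from 0 to 721 in the KO at E14.5 (308 as reported), 2358 to 7997 in the KO at E18.5 (3819) and 81 to 2826 in the cKO (1305). In other spots they ran from 2389 to 5634 between the stages (4522), 0 to 177 in the KO at E14.5 (0), 0 to 397 in the KO at E18.5 (16) and 62 to 576 in the cKO (181). Center minus periphery gave 1214 to 3603 at E14.5 (2876), 731 to 5081 at E18.5 (2943), 118 to 1666 in the stage difference (1149), and 0 to 112, 0 to 201 and 1 to 303 in the differences for KO at E14.5, KO at E18.5 and cKO (20, 84 and 175). Center minus intermediate gave 2 to 2424 at E14.5 (2036) and 24 to 2208 at E18.5 (1690). Muscle minus other gave 3090 to 6035 at E14.5 (5769), 1441 to 5889 in the stage difference (2880), and 0 to 16, 0 to 565 and 23 to 281 in the mutant differences (0, 0 and 119). Library totals moved the share of higher calls from 54.2% to 29.5% in other spots between the stages, from 57.5% to 39.8% and from 56.1% to 36.3% in center minus periphery at E14.5 and E18.5, and from 58.1% to 27.3% and from 54.6% to 15.05% in muscle minus other. These genes had UMIs in at least 81.1% of muscle spots of every section, and the limit set by depth was not measured.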

Other observations

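By distance from the nearest spot outside muscle, *Cdkn1c* in E14.5 controls stood at 3962, 4279 and 4295 raw CPM within 100 µm and at 6079, 5868 and 5885 beyond 300 µm. In E18.5 controls the same bins held 1698 and 1878 against 1717 and 1841, so that in raw CPM the gradient seen in 3 of 3 E14.5 sections did not appear. For *Ndn* the E14.5 controls went from 464, 435 and 352 within 100 µm to 586, 476 and 467 beyond 300 µm, and the E18.5 controls from 184 and 263 to 206 and 258. These raw CPM values carry no test and keep the shift that TMM scaling sets aside. The fits gave a different picture at E18.5. There the center minus periphery of *Cdkn1c* ran from 0.22 to 0.44 over 12 alternatives, regions by distance among them, and that of *Ndn* by distance was 0.49.

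*Plagl1* in tendon-rich spots lay below muscle of the same section at E14.5 and above it at E18.5 in the controls, with ratios of raw CPM of 0.78 to 0.93 against 1.39 to 1.68. With library totals the median gene moved the same way, from −0.20 at E14.5 to −0.71 at E18.5 in muscle against all other spots. Its part in the *Plagl1* ratios was not tested. *Plagl1* also had the highest deposited Moran's I of the members in the KO at E18.5, 0.504, at rank 75 of 17006 genes, where *Cdkn1c* was at 0.191 and rank 974.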
